A study of Homo sapiens with 8 samples.

Results

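Subtelomeric CTCF peaks are the sites of CTCF binding in the last stretch of each chromosome, next to the telomere. They were chosen by their position: a peak of CTCF replicate 1 on chromosomes 1 to 22 or X was taken when it overlapped a peak of CTCF replicate 2 by at least 1 bp and its summit lay within 500 kb of either end of the hg38 chromosome. The rule kept 348 of 33936 shared CTCF peaks, or 1.03% of them, in windows that held 0.643% of the known sequence. Presence in both CTCF replicates was part of the rule, so the fold enrichments of these peaks are given as a description, with no test.

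The series holds 8 ChIP-seq libraries from U-2 OS, an established cell line derived from a human osteosarcoma. All were crosslinked with 1% formaldehyde for 6 minutes. Both CTCF libraries (antibody ab128873) came, per the labels, from clone C32, a single clone carrying an endogenous FLAG-Halo-CTCF knock-in, whereas the series' design text calls the cells wild type. The Sp1 antibody 1, Sp1 antibody 2 and normal rabbit IgG (ab46540/1) libraries came from cells with an endogenous V5-Halo-SP1 knock-in, 1 library each. The other 3 libraries were inputs and have no peak list. A supplementary legend places the CTCF libraries in the V5-Halo-Sp1 line. The study's ChIP methods, like the labels, name clone C32 and the V5-Halo-Sp1 line as separate knock-in clones. The sources thus conflict on whether CTCF and Sp1 were profiled in different lines, and the labels were followed here. The lists held 42493 peaks for CTCF replicate 1, 35765 for replicate 2, 8602 for Sp1 antibody 1, 5882 for Sp1 antibody 2 and 90 for IgG, and carry no read counts.

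CTCF is a zinc finger protein that binds a long, directional motif and stops loop extrusion by cohesin when the motif faces the extruding complex. Human chromosomes end in tandem copies of the hexamer TTAGGG, and the DNA just inside them is a patchwork of segments duplicated between chromosome ends. A CpG-rich element made of short tandem repeats lies next to the telomere at many ends, serves as promoter for the telomeric RNA TERRA, and is a known site of CTCF binding. U-2 OS cells maintain their telomeres by recombination rather than by telomerase. Sp1 is a zinc finger activator that binds GC boxes, read here as GGGCGG on either strand.

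The sites nearest the telomeres had closely related sequences, shown here because most of the highest subtelomeric values came from them. Aligning the 300-base windows around all 348 summits, and joining windows with at least 90% identity over at least 80% of their length, gave 24 families with 111 members. The largest, called the terminal family below, had 21 members at 20 chromosome ends. Of these, 16 lay between 367 and 2051 bases from the end of the known sequence (median 1424) and 5 lay farther in, at 48.05 to 187 kb. Each line gives 48 bases of hg38 sequence around the match to the 12-base CTCF core (at most 1 mismatch), read 5′ to 3′ toward the telomere, with the core in capitals.
16p, chr16:10948-10995, minus strand: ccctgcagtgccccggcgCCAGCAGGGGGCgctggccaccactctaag
9p, chr9:11380-11427, minus strand: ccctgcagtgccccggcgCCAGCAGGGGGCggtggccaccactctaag
4q, chr4:190203342-190203389, plus strand: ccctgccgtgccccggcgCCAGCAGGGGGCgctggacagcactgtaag
2p, chr2:11585-11632, minus strand: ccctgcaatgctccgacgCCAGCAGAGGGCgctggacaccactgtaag
10q, chr10:133785985-133786032, plus strand: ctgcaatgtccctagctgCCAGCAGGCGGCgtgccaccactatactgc
21q, chr21:46698475-46698522, plus strand: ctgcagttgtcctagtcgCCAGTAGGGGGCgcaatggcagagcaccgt
Xq, chrX:156028802-156028849, plus strand: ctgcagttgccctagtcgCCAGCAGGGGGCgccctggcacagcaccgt

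The 48 bases taken at each of the 21 sites gave 11 distinct sequences, and the commonest, that of 16p, occurred 5 times. All 21 cores were read toward the chromosome end. Because the copies share ancestry, they are not 21 independent cases of an orientation. The core was also repeated in tandem within each site, and the 48 bases were not always taken at the same repeat unit. The 21q window below, for example, also holds the 48 bases listed above for another end. The 11 distinct sequences therefore do not measure divergence between copies alone. The 300 bases around the 21q summit, chr21:46698325-46698624 on the plus strand, show 4 cores in capitals, at bases 52 to 63, 111 to 122, 169 to 180 and 228 to 239 of the window.
21q: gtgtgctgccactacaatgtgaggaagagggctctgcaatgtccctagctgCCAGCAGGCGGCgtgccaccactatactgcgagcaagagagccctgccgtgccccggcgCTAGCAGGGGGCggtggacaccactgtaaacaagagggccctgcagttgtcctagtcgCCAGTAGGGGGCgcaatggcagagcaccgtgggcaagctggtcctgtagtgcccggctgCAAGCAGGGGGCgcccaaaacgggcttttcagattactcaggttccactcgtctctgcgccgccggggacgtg

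Across the 21 windows there were 72 core matches, 72 read toward the end and 0 away from it. A window held 2 matches in 2 members, 3 in 10, 4 in 7 and 5 in 2. The 51 gaps between the starts of successive matches ranged from 58 to 62 bases, and 28 of them were 59 bases. Of all shared CTCF peaks, 3.38% had 2 or more cores in a window of this length, against 53 of the 348 subtelomeric peaks (15.2%) and 9.79% of those outside the terminal family. The windows were GC-rich, between 63.5 and 68.8% GC, against a median of 48.2% for all shared peaks.

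CTCF fold enrichment in the terminal family was among the highest in the genome. Fold enrichment is the height of the summit over the background that the peak caller estimated, and a value of 1 is background. At 9p it was 494 in replicate 1 and 424 in replicate 2, the highest mean log2 fold enrichment of all 33936 shared peaks. At 4q the values were 519 and 141, at 16p 388 and 206, and at 21q 387 and 250. These 4 ends were high in both replicates, although the replicates placed them in different orders. The copy on 1p at 182 kb from the end, inside the duplicated segment that holds DDX11L17, gave 373 and 188. The lowest values were 17.8 and 6.54 at Xq, below the values of each other copy in both replicates.

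The family's median was 215 in replicate 1 (range 17.8 to 519) and 97.3 in replicate 2 (range 6.54 to 424). The medians over all shared peaks were 41.7 and 21.8. Replicate 2 was lower at all 21 copies, with a median log2 ratio of replicate 2 over replicate 1 of -0.99. That offset was general, since the ratio over all shared peaks was -0.89 and 2.73% of them were higher in replicate 2. Of the 348 subtelomeric peaks, 16 (4.60%, 95% Wilson interval 2.85 to 7.34) stood among the highest 1% by mean log2 fold enrichment (0.999% of all shared peaks), and 10 of the 16 belonged to the terminal family. For 18 of the 21 copies, over 50% of the 31-base words around the summit occurred more than once in the genome, here called repeated sequence. Of the 212 subtelomeric peaks under that limit, 41 of which still held at least 1 repeated word, 2 stood among the highest 1% (0.943%). The study's methods list the aligner's options and name no filter for reads that match several copies. They do not state how such reads were placed, and the part of this placement in these values was not tested.

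**Figure D1:**
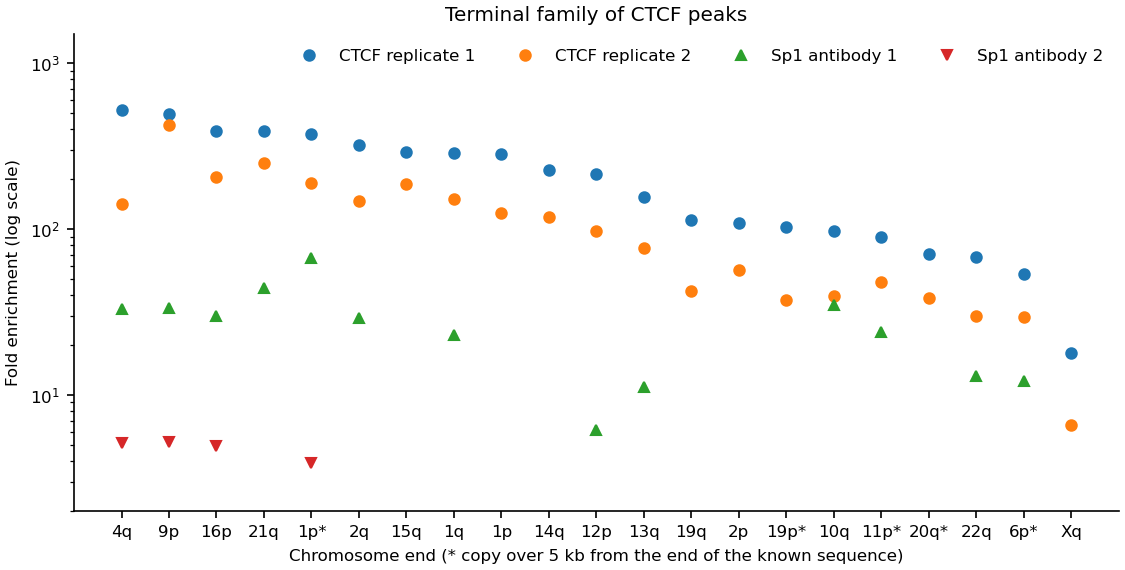
Fold enrichment (log axis) at the 21 copies of the terminal family, ordered by CTCF replicate 1, with 1 point per peak list and chromosome end and an asterisk for copies over 5 kb from the end of the known sequence. CTCF replicate 1 runs from 519 at 4q down to 17.8 at Xq with replicate 2 below it at every copy; Sp1 antibody 1 has a peak at 13 copies and Sp1 antibody 2 at 4.

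Outside the family, 3 more sites with a core lay within 2 kb of the end of the known sequence, at 4p, 11q and 18q, and each core was read toward the telomere. The 4p and 11q windows held 3 cores each, as many terminal-family windows do, and are shown for that reason. The 18q window held 1.
4p, chr4:11851-11898, minus strand: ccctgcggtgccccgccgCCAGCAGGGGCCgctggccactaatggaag
11q, chr11:135075864-135075911, plus strand: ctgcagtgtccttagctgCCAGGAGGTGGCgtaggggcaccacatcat

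The 4p site gave a fold enrichment of 110 in replicate 1 and 55.7 in replicate 2, and the 11q site 128 and 64.1. Both lay within the range of the terminal family, as did the 18q site with 43.8 and 16.6.

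Telomere repeats themselves carried only weak CTCF peaks. A second family of 7 windows, at 1q, 3p, 5p, 11p, 12p, 18p and 20q, had summits in or beside runs of TTAGGG and no CTCF core.

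These 7 peaks had fold enrichments of 1.17 to 2.94 in replicate 1 (median 2.03). In replicate 2 the range was 1.14 to 4.30 (median 2.28). Over all shared peaks the medians were 41.7 and 21.8. The 5p peak had the lowest mean log2 fold enrichment of all 33936 shared peaks. At 1q both kinds of site lay side by side: the terminal-family copy gave 286 and 151, and the repeat tract 1.66 and 1.52. At 12p the copy gave 215 and 97.3 and the tract 2.32 and 2.03. Sp1 antibody 1 had a peak at each of the 7 tracts, with fold enrichments of 6.11 to 12.1, and Sp1 antibody 2 at 6 of them, at 2.28 to 4.32. IgG had a peak at 2, those of 3p (3.23) and 5p (2.21). The IgG library thus held signal at the same repeats, and its part in the Sp1 and CTCF values was not tested.

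Of all 5 IgG peaks within 500 kb of a chromosome end, 5 had at least 2 telomere hexamers within 50 bp of the summit, at 3p, 4q, 5p, 12q and Xq. The same was true of 23 of 194 subtelomeric Sp1 antibody 1 peaks, with a median fold enrichment of 6.82, and of 12 of 113 Sp1 antibody 2 peaks, with a median of 3.17. The highest Sp1 antibody 1 value among these was 23.7, at 1p.

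Chromosome ends differed in whether a CTCF peak with a core, at any fold enrichment, lay next to the telomere. Known sequence was present within 500 kb for 41 of 46 ends, and each of the 41 had at least 1 member. The windows of the short arms of chromosomes 13, 14, 15, 21 and 22 hold no sequence in hg38. Of the 41 ends, 26 had at least 4 successive telomere hexamers in the last 3 kb of their sequence, and 17 of these 26 had a peak with a CTCF core within 5 kb. The 9 without were 3p, 5p, 7p, 7q, 10p, 12q, 17q, 18p and Xp, of which 3p, 5p and 18p had only the weak peak on the repeats. Of the 15 ends whose sequence stops short of telomere repeats, 2 had such a peak, 2p and 14q. The sequence next to the telomere at these 15 ends was not analysed here.

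A member lay within 100 kb of the end at 32 ends, at a median of 11.6 kb for the nearest one, including the unsequenced padding of 10 kb or more at each end. Of these 32 nearest members, 20 had a core, and 15 of those cores were read toward the end. Of these 15, 13 were terminal-family copies, which share ancestry and are not independent cases. Among all members within 50 kb of an end and outside that family, 5 of 12 cores were read toward it (41.67%, Wilson interval 19.33 to 68.05). The number of members per end ranged from 1 at Xp to 24 at 14q, with a median of 7. Long arms had 226 and short arms 122, but the windows of 5 short arms hold no sequence. The ends with most members, 14q and 10q (23), are also long arms.

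**Figure D2:**
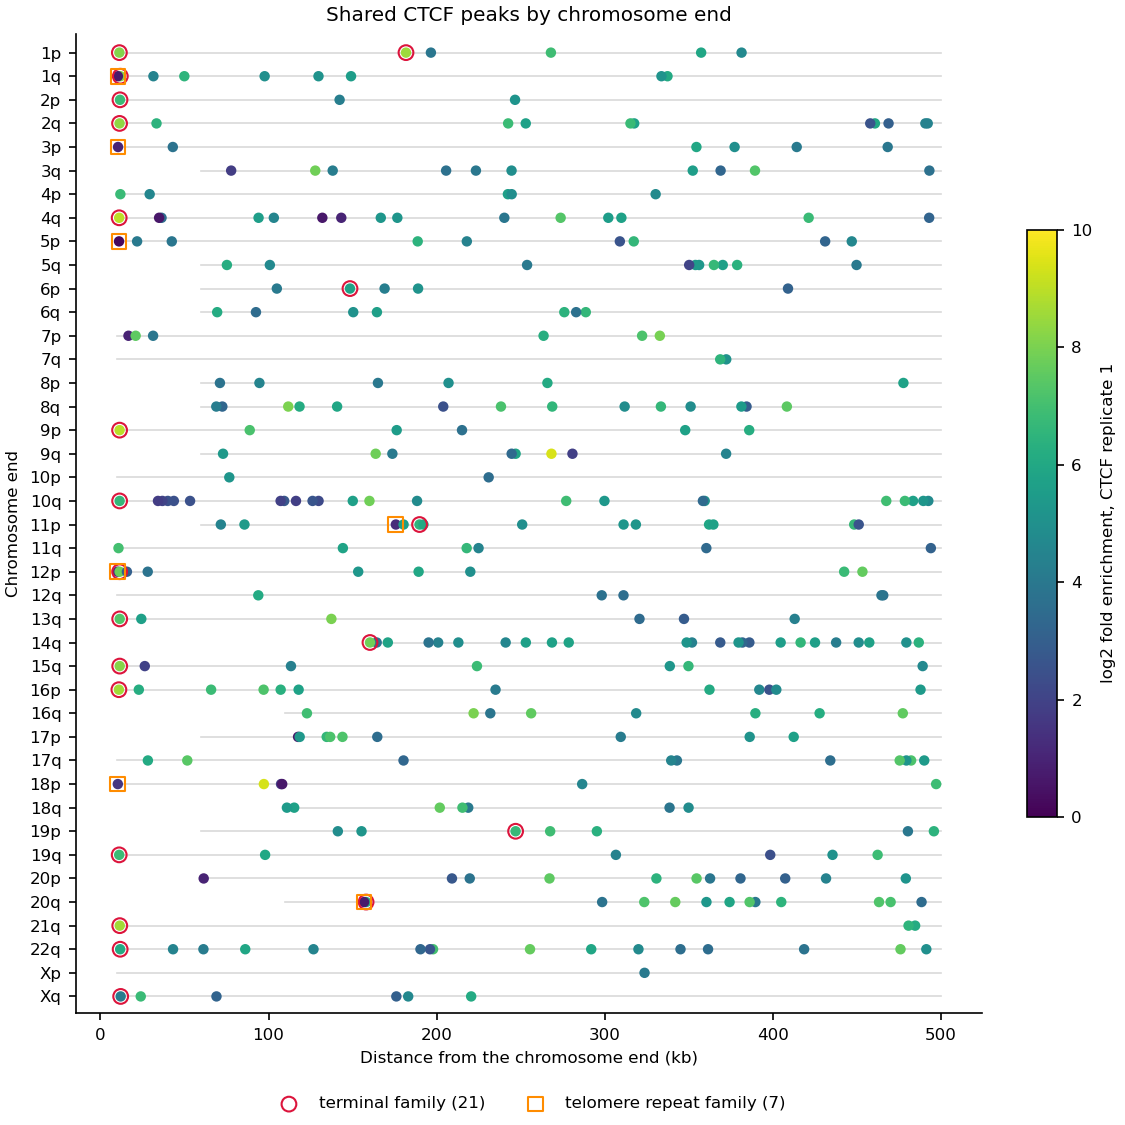
Positions of the 348 subtelomeric CTCF peaks, 1 row for each of the 41 chromosome ends with known sequence, by distance from the chromosome end in kb, coloured by log2 fold enrichment in CTCF replicate 1; grey lines begin where known sequence begins. Circles mark the 21 peaks of the terminal family and squares the 7 on telomere repeats; Xp has 1 peak and 14q has 24.

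CTCF peaks were denser near the ends than in the genome as a whole. There were 18.6 shared peaks per Mb of known sequence in the windows (95% Poisson interval 16.7 to 20.7) and 11.7 per Mb over all chromosomes used. The interval covers counting error only and treats duplicated and clustered peaks as independent. The density was 44.8 per Mb in the outermost 50 kb, where 46 peaks lay in 1.03 Mb of sequence, and 30.2 per Mb there without the terminal family. In the other 50-kb bins it lay between 11.2 and 21.5 per Mb. Fold enrichment did not follow distance in the same way. The median in replicate 1 was 37.0 in the outermost bin and 40.4 in the innermost, but the quartiles of the outermost bin, 6.30 and 125, lay farther apart, and it holds 15 of the 21 terminal-family copies and most of the weak peaks on repeats. Over all 348 peaks the median was 36.7 in replicate 1 and 18.8 in replicate 2.

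**Figure D3:**
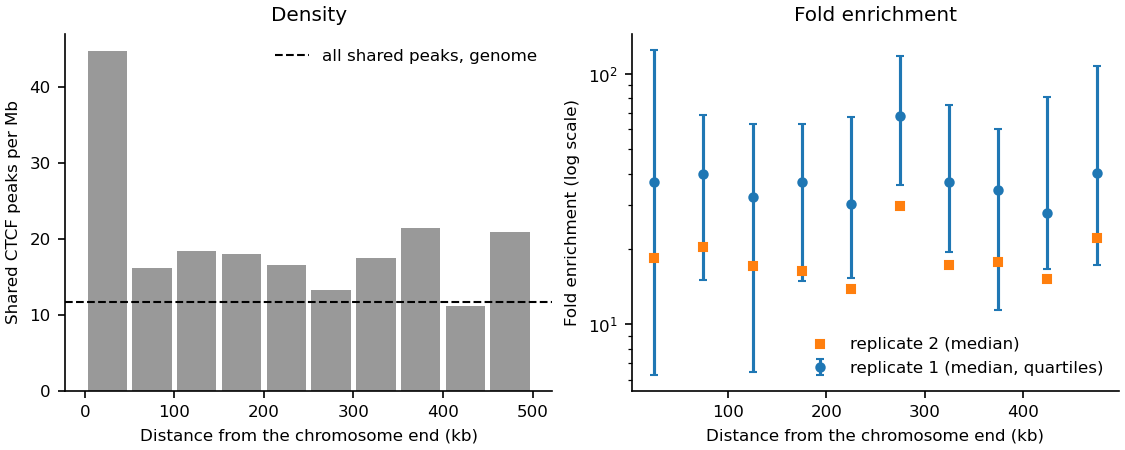
Shared CTCF peaks per Mb of known sequence (left) and fold enrichment on a log axis (right) in 50-kb bins of distance from the chromosome end; the dashed line is the density over all chromosomes used, points are medians and bars the quartiles of replicate 1. The outermost bin stands at 44.8 peaks per Mb, and medians in replicate 1 range from 27.8 to 67.7.

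At the limit of the window, the last peak inside lay 497 kb from the end of 18p with fold enrichments of 117 and 54.8, and the first outside lay 504 kb from the end of 14q with 15.6 and 11.5.

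Other duplicated families recurred at several ends. The pair ranking next to 9p by mean log2 fold enrichment, at 9q (268 kb from the end) and 18p (97.2 kb), had identical sequence around the core and almost identical values, 664 and 218 at 9q and 655 and 216 at 18p. Values within larger families varied more. A family of 6, at 3q, 7p, 9q, 11p, 16q and 17p, had a median of 202 in replicate 1 (range 40.0 to 257). In replicate 2 its median was 81.6 (range 23.6 to 129). In this family 6 of 6 cores were read toward the end. The sequence taken at 5 of its members, all but 17p, and that of the pair are shown for comparison with the terminal sites, again toward the telomere.
18p, chr18:97186-97233, minus strand: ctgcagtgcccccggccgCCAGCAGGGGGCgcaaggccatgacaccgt
16q, chr16:90116347-90116394, plus strand: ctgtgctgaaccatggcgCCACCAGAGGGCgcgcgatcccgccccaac

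Not all families pointed to the telomere. A family of 15 peaks at 10 ends had a core at all 15, and 10 of these cores were read toward the end. Its median was 40.8 in replicate 1 and 20.4 in replicate 2. In a family of 8 peaks at 7 ends, 8 of 8 cores were read away from the end. The peak of this family at 17q lay inside the ribosomal protein pseudogene RPL23AP87. The family's median was 71.6 in replicate 1 (range 14.2 to 122) and 41.9 in replicate 2 (range 10.1 to 73.1). In a family of 7 beside olfactory receptor genes of the OR4F group, each between 1864 and 1925 bases from an OR4F start site, 6 had a core and all 6 were read away, with medians of 36.7 and 19.5. Over all members, 92 of 200 cores (46.0%, Wilson interval 39.2 to 52.9) were read toward the end, against 49.6% of all shared peaks relative to their nearer end. Outside the terminal family it was 71 of 179 (39.7%, interval 32.8 to 47.0). These intervals cover counting error only and treat copies as separate sites.

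The 14q end, which is the variable part of the immunoglobulin heavy chain locus, had the densest run of sites, 70.6 per Mb. At 22 of its 24 members the nearest start site was that of a heavy chain V segment or V pseudogene, within 1 kb at 16. Of the 18 with a core, 17 were read away from the telomere, which is the direction in which all 22 of those segments are transcribed, and the 1 read toward it was the terminal-family copy. Neighbouring sites were a median of 11.9 kb apart. Fold enrichment ran from 7.07 to 228 in replicate 1 (median 36.9) and from 4.79 to 119 in replicate 2 (median 21.6). None of the 22 overlapped an Sp1 peak of either antibody, and neither antibody had any peak within 500 kb of the 14q end. Over all shared CTCF peaks the shares with an overlap were 5.4% for antibody 1 and 3.36% for antibody 2. Without these 18 cores and the rest of the terminal family, 71 of 162 cores (43.8%, interval 36.4 to 51.5) were read toward the end.

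The 10q and 4q ends carry arrays of a macrosatellite repeat, each unit of which holds a copy of the homeobox gene DUX4. A DUX4 copy was the nearest start site at 16 members, 10 at 10q and 6 at 4q. Most of these peaks were weak, with a median of 5.21 in replicate 1 (range 1.52 to 47.7) and 2.19 in replicate 2 (range 1.61 to 23.6). The highest values were at a 4q peak 29468 bases from the nearest DUX4 start site. Another 4q peak, with 23.7 in replicate 1, lay 20384 bases from it. The next highest value in replicate 1 was 11.5. A core was present at 1 of 16, the peak with the highest values, and 15 of 16 had repeated sequence. Farther in at 4q, the peak 105 bases from a start site of FRG1, a neighbour of this array, gave 160 and 102.

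Subtelomeric gene groups differed in how many of their members had a CTCF peak within 5 kb of a start site. Of all 959 genes with a start site in the windows, 284 did (29.6%), and 105 of 305 protein-coding genes (34.4%). All 10 DDX11L records did, short transcripts that begin beside the terminal family, with their peaks 562 to 968 bases away. They lay at 6 ends and shared the peaks of the terminal family. Of the DUX4 copies 21 of 24 did, but neighbouring copies shared peaks. The same peak, with 3.58 in replicate 1 and 2.23 in replicate 2, lay within 5 kb of DUX4L20, DUX4L21 and DUX4L22. Of the WASH pseudogene group, copies of a gene for an actin-regulating complex, 5 of 8 did, and of the OR4F genes 7 of 23. The group of RPL23A pseudogenes had 2 of 14, the tubulin gene TUBB8 and its copies 1 of 4, and the FRG group 2 of 5, namely FRG1 and the divergent transcript FRG1-DT, which share a peak. Both genes of the secretoglobin 1C pair, SCGB1C1 and SCGB1C2, had one. Zinc finger genes had 16 of 49. The pseudoautosomal genes had 2 of 4 on Xp and 2 of 5 on Xq. FAM138 (0 of 5) and the CICP pseudogenes (0 of 9) had none.

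Start sites of genes of all kinds were more frequent at subtelomeric peaks than at all shared peaks, but for protein-coding genes alone the interval included the share over all shared peaks. The summit lay within 1 kb of a GENCODE start site at 119 of 348 (34.2%, interval 29.4 to 39.3), against 20.8% of all shared peaks, and at 35.8% of the 212 with at most 50% of words repeated. With protein-coding start sites only, the share was 17.0% (interval 13.4 to 21.3) against 14.8%. Of the 119, 53 were nearest to a protein-coding gene, 31 to a long noncoding RNA, 16 to an immunoglobulin V segment or V pseudogene and 16 to another pseudogene. Intergenic sequence held 166 members (47.7%, against 37.5% of all shared peaks) and introns 114 (32.8% against 50.3%). Untranslated regions held 19 and coding exons 4. The other 45 lay in exons annotated as neither, including exons of protein-coding genes such as PSMD13 and TCF25. At the start of SYCE3, a synaptonemal complex gene 255570 bases from the 22q end, the values were 199 and 77.4. At CYP2E1, the ethanol-oxidizing cytochrome at 10q, they were 118 and 96.1.

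Sp1 peaks met CTCF peaks more often near the ends than elsewhere. Sp1 antibody 1 overlapped 45 members (12.9%, interval 9.81 to 16.9) against 5.4% of all shared peaks, antibody 2 overlapped 22 (6.32%, interval 4.21 to 9.39) against 3.36%, and both overlapped 15 (4.31%) against 2.65%. IgG overlapped 2 (0.575%) against 0.109%. With summits within 100 bp of each other the shares were lower, 3.74% against 1.60% for antibody 1 (interval 2.196 to 6.29) and 2.30% against 1.05% for antibody 2 (interval 1.17 to 4.47), and with a reciprocal overlap of 50% they were 5.46% against 2.402% and 3.45% against 1.54%. Among the 212 members with at most 50% of words repeated, the 1-bp shares were 7.08% for antibody 1 (interval 4.33 to 11.3) and 2.83% for antibody 2 (interval 1.30 to 6.04), and both intervals include the share over all shared peaks. A GC box lay within 50 bp of the CTCF summit at 48 members (13.8%), against 7.76%.

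In the terminal family, antibody 1 overlapped 13 of 21 copies and antibody 2 overlapped 4. At 12p the same antibody 1 peak, with 6.14, overlapped both the copy and the repeat tract. Its summit lay in the repeats, 1159 bases from the CTCF summit of the copy. The 4 copies with both were those of 9p, with Sp1 fold enrichments of 33.4 and 5.17 for antibodies 1 and 2, 16p with 29.7 and 4.90, 4q with 32.8 and 5.16, and the inner copy of 1p with 66.4 and 3.89. These 4 were among the 5 copies with the highest CTCF value in replicate 1, but in replicate 2 the 4q copy ranked 8 in the family. The antibody 1 summit lay nearer to the telomere than the CTCF summit at 12 of the 13, by a median of 495 bases, and within 100 bases of it at 3. At all 4 antibody 2 peaks the summits were within 100 bases. Of the 13 antibody 1 summits, 2 lay in telomere repeats and 6 had a GC box within 50 bp. The fifth member by CTCF height with both antibodies was that at SYCE3, with Sp1 values of 11.9 and 7.14. Each antibody was used in 1 library, so these values have no replicate error.

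Subtelomeric peaks often lay in sequence shared with the rest of the genome. Over 50% of the 31-base words around the summit recurred in the genome at 136 members (39.1%, interval 34.1 to 44.3), against 6.2% of all shared peaks. A near-identical window was found at another chromosome end for 97 members (27.9%). At least 2 successive telomere hexamers lay within 1 kb of the summit at 19 members (5.46%, interval 3.52 to 8.37), against 0.127%. The CTCF core with at most 1 mismatch was found at 200 members (57.5%, interval 52.2 to 62.6) against 57.0%, and an exact core at 103 (29.6%, interval 25.1 to 34.6) against 18.7%. Members with a core had a median fold enrichment of 52.0 in replicate 1, and the 148 without had 19.4.

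**Figure D4:**
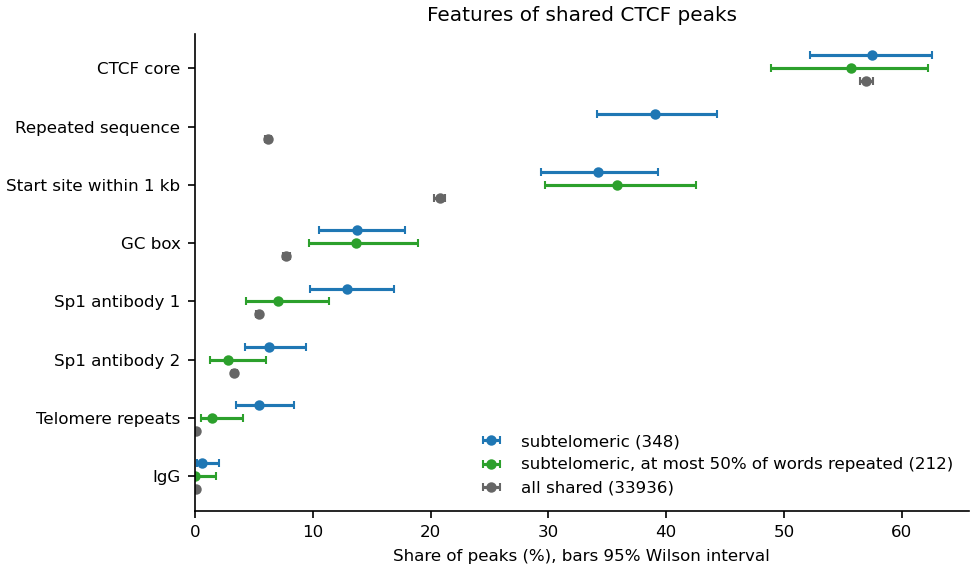
Share of peaks in percent with each feature, for the 348 subtelomeric CTCF peaks, the 212 of them with at most 50% of their 31-base words repeated, and all 33936 shared peaks; bars are 95% Wilson intervals, and repeated sequence is not plotted for the 212 because it defines them. The share with a core is 57.5% against 57.0%, while start sites are at 34.2% and 35.8% against 20.8%.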

How the data were processed

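ChIP-seq reads were trimmed with cutadapt 2.6, aligned to hg38 with Bowtie2 2.4.5 and handled with SAMtools 1.15.1, and peaks were called for each library with MACS2 2.2.7.1, per the labels (the study's methods name other versions of the aligner and SAMtools). The deposited narrowPeak lists give fold enrichment as a ratio, −log10 p and −log10 q at the summit, a summit offset and an integer score, all as the authors' peak caller wrote them. The score was not used. The lists hold no read counts, and read numbers were not used here. No peak ran past the end of its hg38 chromosome.

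The members and lists were chosen with earlier results of these data known, and the terminal and telomere repeat families after their values were seen. Named sites were the nearest within 100 kb of each end, the 10 highest by mean log2 fold enrichment, the 5 highest overlapped by both Sp1 antibodies, those with IgG peaks, those at the window's limit and the main families. Genes came from GENCODE 44. Overlap meant at least 1 bp. The CTCF core (12 bases, at most 1 mismatch, either strand) was sought within 50 bp of the replicate 1 summit. A position weight matrix (20 positions, 19144 sites outside the windows) was an alternative. Windows were aligned with BLAST+ 2.17.0. Sequences of the windows on telomere repeats are not reported here. Intervals are 95% Wilson or Poisson. Scripts (Python 3.11.15, pandas 2.3.3, pysam 0.24.0) were tested on simulated data.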

Additional observations from a re-analysis of the deposited data

How the results depend on the processing

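Of 52 alternative values, 32 stayed within the interval of the main value, or within 1.5 times a count, and 20 did not; none is a test. The number of peaks was 177 within 250 kb and 708 within 1 Mb, and leaving out a CTCF replicate gave 376 to 458 peaks, or 20.1 to 24.5 per Mb, with the density at 20.7 per Mb within 250 kb. The share with a core was 29.6% for exact matches, 83.0% with at most 2 mismatches and 85.6% with the position weight matrix (over all shared peaks 18.7%, 85.4% and 89.9%). Cores read toward the end were 54.4% for exact matches. Telomere repeats within 500 bp were found at 3.16%. Repeated sequence was 50.9% for any word and 25.6% for all words. Overlap with Sp1 antibody 1 fell to 5.46% and with antibody 2 to 3.45% under a reciprocal 50% overlap, and to 3.74% and 2.30% with summits within 100 bp, where IgG overlap was 0.0%. Start sites were at 19.0% within 500 bp, 62.9% within 5 kb and 17.0% for protein-coding genes (over all shared peaks 14.9%, 44.2% and 14.8%). Near-identical windows were found for 18.7% at 95% identity. No paired analysis was possible because no result comes from a test and the Sp1 and IgG groups have 1 library each.

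Limits: values at repeated sites depend on how reads were placed among copies, hg38 lacks sequence at many ends, and the lists give no read counts, so an absent peak does not show absent binding.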

Other observations

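Peaks found in only 1 CTCF replicate were also present near the ends. Replicate 1 had 458 peaks within 500 kb of an end, of which 110 (24.02%) had no overlapping peak in replicate 2, against 20.1% over its whole list. Replicate 2 had 376, of which 23 (6.12%) had none in replicate 1, against 4.29%. These peaks were weak, with median fold enrichments of 5.55 in replicate 1 and 3.12 in replicate 2 and no value above 15.1. Only 3 of the 110 and 0 of the 23 lay within 5 kb of the end of the known sequence.

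Of the whole lists, 1.08% of CTCF replicate 1 peaks lay near chromosome ends and 1.05% of replicate 2 peaks, against 2.26% for Sp1 antibody 1 (95% Wilson interval 1.962 to 2.59), 1.92% for Sp1 antibody 2 (interval 1.60 to 2.31) and 5 of 90 for IgG (5.56%, interval 2.396 to 12.3).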
